A study of Mus musculus with 2 samples.

Results

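The miR-99/100 and miR-125 families were examined in unstimulated bone marrow-derived macrophages (BMDMs), which are macrophages grown in culture from marrow progenitors. The members were taken by name from a table of 1915 mature miRNAs: the 5p strands mmu-miR-99a-5p, mmu-miR-99b-5p, mmu-miR-100-5p, mmu-miR-125a-5p and mmu-miR-125b-5p, together with mmu-miR-99b-3p and mmu-miR-125a-3p, 7 names in all, written without the species prefix from here on. The 2 libraries were biological replicates of a single condition, wild type mice of the C57/BL6 background aged 8 weeks, so there was no treatment or genotype to compare. A total of 7322969 reads in replicate 1 and 8094314 reads in replicate 2 had been counted on mature miRNAs.

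A miRNA hairpin yields a 5p and a 3p strand, and usually a single strand, the guide, is kept in the silencing complex while the other, the passenger, is degraded. Target choice depends mainly on the seed, bases 2 to 8 of the mature strand. miR-125 is the mammalian relative of lin-4, the first miRNA described in worms, and miR-99/100 is an old family whose known targets include Mtor. In mammals both families sit with a let-7 gene in homologous clusters that arose by duplication, and miR-125a and miR-125b are studied in blood cell formation and in macrophage activation.

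The mature sequences of the 5p arms are shown because the families are defined by them. They were taken from RefSeq on GRCm38.p6, where all 7 members were matched, and are written 5′ to 3′ with the seed in capitals. The miR-99/100 group shared a single seed.
miR-99b-5p: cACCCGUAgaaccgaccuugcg
miR-99a-5p: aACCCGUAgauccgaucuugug
miR-100-5p: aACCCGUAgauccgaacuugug

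The miR-125 group shared another seed, which was also that of miR-351-5p, a miRNA of the X chromosome outside the 3 clusters.
miR-125a-5p: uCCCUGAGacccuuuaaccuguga
miR-125b-5p: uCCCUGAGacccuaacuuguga
miR-351-5p: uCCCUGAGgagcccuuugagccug

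The 3p members carried seeds of their own, and that of miR-99b-3p was shared with miR-99a-3p.
miR-99b-3p: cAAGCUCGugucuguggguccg
miR-99a-3p: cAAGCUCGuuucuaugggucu
miR-125a-3p: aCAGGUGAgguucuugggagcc

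Counting positions from 1 at the 5′ end, miR-99a-5p and miR-100-5p differed at 1 base, U16A, with the base of miR-99a-5p written first. miR-99b-5p differed from miR-99a-5p at 4 bases, A1C, U11A, U16C and U21C, again with miR-99a-5p first. miR-125a-5p and miR-125b-5p were identical over their first 13 bases and had lengths of 24 and 22 bases. Counts of miR-99a-5p and miR-100-5p are therefore uncertain with respect to each other, since reads with an error at the differing base, or trimmed short of it, could have been placed under either name by the authors' mapping. The same holds for the let-7 partners, since let-7a-5p differed from let-7e-5p at 1 base, U9G, and from let-7c-5p at 1 base, A19G, with let-7a-5p first, so levels and ratios of these names carry this uncertainty too.

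The hairpins lie in 3 clusters, all on the plus strand of GRCm38 in the GENCODE annotation. On chromosome 17, Mir99b (chr17:17830188-17830257), Mirlet7e (chr17:17830352-17830444) and Mir125a (chr17:17830812-17830879) start within 0.624 kb of each other inside the protein-coding gene Spaca6. Mir99b and Mirlet7e fall in its introns, and Mir125a overlaps an exon of an annotated Spaca6 transcript outside coding sequence and UTR. On chromosome 16, Mir99a (chr16:77598936-77599000) and Mirlet7c-1 (chr16:77599657-77599750) are followed by Mir125b-2 (chr16:77646273-77646343), which starts 47.3 kb from the start of Mir99a, each in introns of the noncoding gene Mir99ahg. Mir99a and Mirlet7c-1 also lie in introns of the protein-coding gene Gm11146 on the opposite strand. On chromosome 9, Mir100 (chr9:41531425-41531504), Mirlet7a-2 (chr9:41536716-41536811) and Mir125b-1 (chr9:41581926-41582002) start within 50.5 kb of each other in introns of the noncoding genes 3110039I08Rik and Gm49317. Mir125b-2 and Mir125b-1 also overlap exons of the short annotated genes C130023A14Rik and Gm28119 on the same strand, and Mir100 an exon of Gm48742 on the opposite strand. The mature names miR-125b-5p, let-7c-5p and let-7a-5p are each produced by 2 hairpin genes, so only the chromosome 17 cluster can be read from 5p names of a single locus.

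Levels are given as reads per 1000000 counted reads of the library (RpM), with exact 95% binomial intervals. Intervals and tests cover counting error only. Reads amplified by PCR were not traced to single molecules, and ligation in small RNA libraries favours some sequences, so RpM of different miRNAs are levels of reads and not of molecules.

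The families were carried mainly by the chromosome 17 cluster. The 7 members together held 1.37% of the counts in replicate 1 and 2.09% in replicate 2, a mean of 1.73% ± 0.506 (SD, n = 2). miR-99b-5p and miR-125a-5p alone made up 1.54% ± 0.456 (SD, n = 2) of all counts. miR-99b-5p was thus the main miR-99/100 strand and miR-125a-5p the main miR-125 strand in both libraries.

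miR-99b-5p measured 8350 RpM (8285 to 8416) in replicate 1 and 14228 RpM (14146 to 14310) in replicate 2, and ranked 19 and 14 among all names. miR-125a-5p measured 3858 RpM (3813 to 3903) and 4430 RpM (4384 to 4476), at ranks 29 and 27. For both strands the intervals of the libraries did not overlap, and replicate 2 was the higher. The spread was wide for miR-99b-5p, at a mean of 11289 RpM ± 4156 (SD, n = 2), and narrower for miR-125a-5p, at 4144 RpM ± 405 (SD, n = 2).

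The 5p strands of the other clusters were lower. miR-125b-5p, summed over its hairpins on chromosomes 9 and 16, measured 831 RpM (810 to 852) in replicate 1 and 1235 RpM (1211 to 1259) in replicate 2. miR-99a-5p of chromosome 16 measured 533 RpM (517 to 550) and 705 RpM (687 to 724). miR-100-5p of chromosome 9 was the lowest of the 5p members, with 95.6 RpM (88.6 to 102.9) in replicate 1 and 213 RpM (203 to 223) in replicate 2. All 3 were higher in replicate 2, with intervals that did not overlap.

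The 3p members are the passengers of the chromosome 17 hairpins. miR-99b-3p measured 43.3 RpM (38.7 to 48.3) in replicate 1 and 51.8 RpM (46.9 to 57.0) in replicate 2, and miR-125a-3p 10.7 RpM (8.42 to 13.3) and 9.27 RpM (7.29 to 11.6). The intervals of the libraries overlapped for both passengers.

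From highest to lowest the order was miR-99b-5p, miR-125a-5p, miR-125b-5p, miR-99a-5p, miR-100-5p, miR-99b-3p and miR-125a-3p in each library. The gap between the mean levels of neighbours in this order was larger than the SD of either neighbour at each of the 6 steps, the closest being miR-100-5p above miR-99b-3p with a gap of 107 RpM against an SD of 82.9 RpM. With the 3 let-7 partners added, 2 of 45 pairs changed order between the libraries. These were miR-99b-5p with let-7a-5p and miR-99a-5p with let-7e-5p, so these orders were unresolved.

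**Figure D1:**
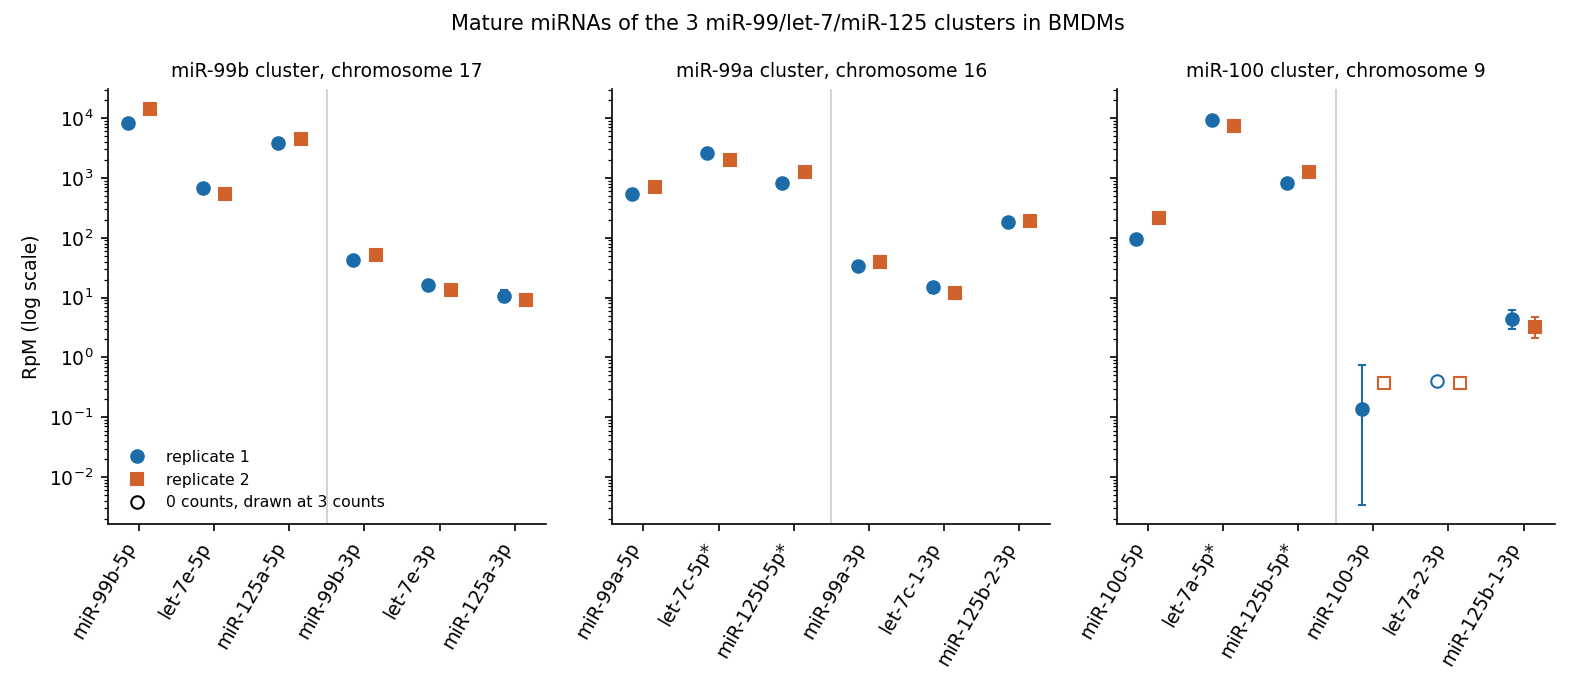
RpM on a log axis of the mature strands of each cluster, 5p strands left and 3p strands right of the line, with circles for replicate 1, squares for replicate 2 and bars for exact 95% intervals. An asterisk marks names produced by 2 hairpin genes, and open symbols mark 0 counts drawn at the floor of 3 counts. The 3p strands of chromosome 9 lie lowest.

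Among all names, the rank neighbours of the 5p members did not separate clearly from them. By mean RpM, miR-99b-5p at rank 15 stood between miR-378a-3p (13381 RpM ± 790, SD, n = 2) and miR-181a-5p (10519 RpM ± 210, SD, n = 2), and its order with both changed between the libraries. miR-125a-5p at rank 29 stood between miR-222-3p and miR-140-3p, and exceeded the latter in both libraries while its order with miR-222-3p changed. miR-125b-5p at rank 63 lay between miR-130b-3p and miR-192-5p, miR-99a-5p at rank 77 between miR-101b-3p and let-7e-5p, and miR-100-5p at rank 131 between miR-671-3p and miR-450a-5p. Each of these last 6 neighbours changed order with its member. The ranks in replicates 1 and 2 were 69 and 60 for miR-125b-5p, 84 and 76 for miR-99a-5p, and 157 and 114 for miR-100-5p, so a mean rank is a rough place only.

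**Figure D2:**
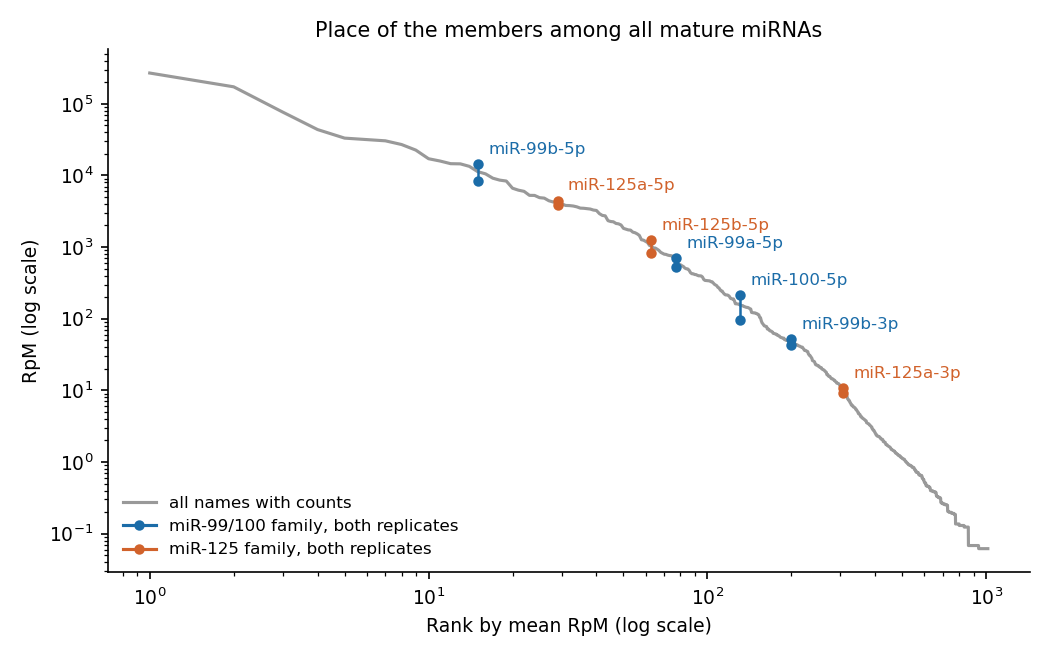
Mean RpM of all names with counts against rank, both on log axes, with the 7 members drawn at their mean rank as a pair of points, 1 for each library, joined by a line. The members span ranks 15 to 307, and the widest lines belong to miR-99b-5p and miR-100-5p.

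Within the miR-99/100 family the paralogs were far from equal. The ratio of miR-99b-5p to miR-99a-5p was 15.7 (15.2 to 16.2) in replicate 1 and 20.2 (19.6 to 20.7) in replicate 2. The ratio of miR-99a-5p to miR-100-5p was 5.58 (5.15 to 6.06) and 3.31 (3.14 to 3.50). The direction of both ratios was shared by the libraries, while their size differed by more than counting error. On the log2 scale the means were 4.15 ± 0.26 and 2.10 ± 0.53 (SD, n = 2).

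As a seed group, the miR-99/100 strands held 8979 RpM in replicate 1 and 15146 RpM in replicate 2. miR-99b-5p supplied 93.0% and 93.9% of these reads, miR-99a-5p 5.94% and 4.66%, and miR-100-5p 1.06% and 1.41%. miR-99b-5p thus held most of the seed group in both libraries.

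Within the miR-125 family, miR-125a-5p exceeded miR-125b-5p 4.64-fold (4.51 to 4.77) in replicate 1 and 3.59-fold (3.51 to 3.67) in replicate 2. The log2 ratio was 2.03 ± 0.26 (SD, n = 2). miR-351-5p, which carries the same seed, lay between them with 2200 RpM and 2303 RpM, 2.65-fold and 1.87-fold above miR-125b-5p. With miR-351-5p the seed group reached 6889 RpM and 7968 RpM, of which miR-125a-5p supplied 56.0% and 55.6%, miR-351-5p 31.9% and 28.9%, and miR-125b-5p 12.1% and 15.5%. miR-6367 and miR-6394, which also share this seed, had 0 counts in both libraries, and the floor of 3 counts was 0.410 RpM for replicate 1 and 0.371 RpM for replicate 2.

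Partners were next compared within the clusters. On chromosome 17 the miR-99 strand led, with 2.16 reads (2.13 to 2.20) of miR-99b-5p for each read of miR-125a-5p in replicate 1 and 3.21 (3.17 to 3.25) in replicate 2. Its let-7 partner let-7e-5p was the lowest of that cluster at 670 RpM and 545 RpM, and miR-99b-5p exceeded it 12.5-fold in replicate 1 and 26.1-fold in replicate 2. The order of the partners was the same in both libraries, although the last ratio changed 2.09-fold.

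For the other clusters the names shared between loci give only the level summed over both loci, and the second hairpins of let-7c-5p (Mirlet7c-2, chromosome 15) and let-7a-5p (Mirlet7a-1, chromosome 13) lie outside the clusters. miR-99a-5p reached 0.642 (0.616 to 0.668) of miR-125b-5p in replicate 1 and 0.571 (0.553 to 0.590) in replicate 2, and of the 9 partner ratios computed it changed least between the libraries. miR-125b-5p exceeded miR-100-5p 8.69-fold (8.04 to 9.42) and 5.80-fold (5.51 to 6.11). let-7c-5p, at 2660 RpM and 2009 RpM, was above miR-99a-5p 4.99-fold and 2.85-fold, and let-7a-5p, at 9276 RpM and 7413 RpM, was above miR-100-5p 97.0-fold and 34.8-fold. By these names let-7 was the highest and the miR-99/100 strand the lowest, but the order of the partners inside the chromosome 16 and chromosome 9 clusters was not measured.

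Passenger strands carry the locus in their name and separate what the shared 5p names cannot. miR-125b-2-3p of chromosome 16 had 1357 counts in replicate 1 and 1554 in replicate 2, against 32 and 26 for miR-125b-1-3p of chromosome 9, a ratio of 42.4 (29.9 to 62.3) and 59.8 (40.6 to 91.8). miR-99a-3p of chromosome 16 had 244 and 315 counts, whereas miR-100-3p of chromosome 9 had 1 and 0. let-7c-1-3p had 108 and 95 counts and let-7a-2-3p 0 in both libraries, while the sequence shared by let-7c-2-3p and let-7a-1-3p, from the loci outside the clusters, had 1378 and 1092. miR-99a-3p was thus above let-7c-1-3p, unlike the order of the 5p names. In all 3 positions of the cluster the chromosome 16 passenger exceeded that of chromosome 9. These counts describe passengers, and how much of miR-125b-5p came from each locus was not measured, since the hairpins can differ in how much passenger they keep.

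Among passengers the lead of chromosome 17 was much smaller. The ratio of miR-99b-3p to miR-99a-3p was 1.30 (1.10 to 1.54) in replicate 1 and 1.33 (1.15 to 1.54) in replicate 2, beside 15.7 and 20.2 for the 5p strands. In the miR-125 position the order was the opposite of that of the 5p strands, with miR-125b-2-3p 17.4-fold (13.8 to 22.1) and 20.7-fold (16.4 to 26.5) above miR-125a-3p.

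Arm use followed from these values. The 5p arm made up 99.5% (99.42 to 99.54) of both arms of miR-99b in replicate 1 and 99.6% (99.60 to 99.67) in replicate 2, and 99.7% (99.66 to 99.78) and 99.8% (99.74 to 99.84) of miR-125a. miR-99a kept more passenger, with 94.1% (93.4 to 94.8) and 94.8% (94.2 to 95.3) in the 5p arm. For miR-125b, with both 3p names summed, the 5p share was 81.4% (80.5 to 82.3) and 86.4% (85.7 to 87.0), the lowest of the families. miR-100 had 700 counts and 1723 counts in its 5p arm and 1 count in all in its 3p arm.

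Over the 176 hairpins with both arms named and at least 100 counts in all, the median share of the major arm was 97.2%, with quartiles of 85.4% and 99.5%. By mean share, 41 of them were more one-sided than miR-99b, 29 more than miR-125a, 16 more than miR-100, 101 more than miR-99a and 136 more than miR-125b. miR-100, miR-125a and miR-99b were thus above the upper quartile for arm preference, and miR-99a and miR-125b were below the median.

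**Figure D3:**
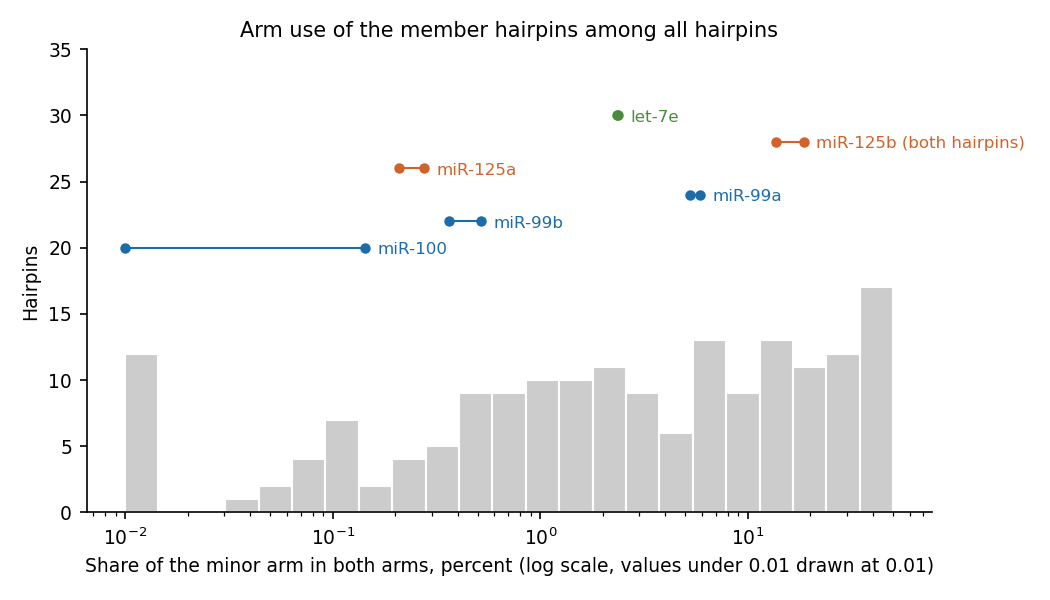
Share of the minor arm in the counts of both arms, in percent on a log axis. Bars count hairpins by the mean of both libraries, and each coloured pair of points gives the 3p share of a named hairpin in the 2 libraries, drawn at an arbitrary height. miR-100, miR-125a and miR-99b lie at the low end and miR-125b near the high end.

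The libraries were then compared for each name by Fisher's exact test, two-sided, of its count against the rest of the library, with Benjamini-Hochberg adjustment over all 588 names with at least 10 counts summed. The test compares these libraries and not conditions. Of the 7 members, 6 were called at an adjusted p under 0.05, against 44.2% of all names tested. All 6 were called higher in replicate 2, as were 13.8% of all names tested, while 30.4% were called lower. With or without a call, 219 of the 588 names were higher in replicate 2, and 74 of the 170 names at 1000 or more counts. The exception, miR-125a-3p, had an adjusted p of 0.583 in Fisher's exact test. At depths of this size counting error is small, and most abundant names were called: 58 higher and 82 lower among 170 names at 1000 or more counts in both libraries together.

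The scaling of the libraries bears on these directions. Over the 588 names tested the log2 ratio (replicate 2 over replicate 1) had a median of -0.16 with library totals, -0.03 with edgeR TMM sizes and -0.02 with DESeq2 size factors. Of the calls over all names, 81 were higher and 179 lower with totals, 122 and 137 with TMM, and 124 and 127 with DESeq2 size factors. The DESeq2 size factor was 1 for both libraries, so that setting left the counts unscaled. The 6 members were called higher in replicate 2 under each of these settings. Log2 ratios are given with totals, and for the members and let-7 strands also relative to the median, a value that no scaling changes.

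miR-100-5p rose most among the members, by a log2 ratio of 1.16 (1.03 to 1.28), or 1.32 relative to the median, with an adjusted p of 1.31e-76 in Fisher's exact test. miR-99b-5p rose by 0.77 (0.75 to 0.78), or 0.93 relative to the median, and miR-125b-5p by 0.57 (0.53 to 0.62), or 0.73. Among the 170 names with at least 1000 counts these had the log2 ratios of rank 2, 5 and 9 from the top. miR-99a-5p rose by 0.40 (0.34 to 0.46), or 0.56 relative to the median, and miR-125a-5p by 0.20 (0.18 to 0.22), or 0.36, at ranks 18 and 38. The median of the 5 was 0.57, and that of all names tested -0.16.

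miR-99b-3p rose by 0.26 (0.04 to 0.47), or 0.42 relative to the median, with an adjusted p of 0.0376 in Fisher's exact test, a call that was lost with miR-21a-5p left out of the totals, with counts thinned to the smaller library, and with names of a single count tested as well. The log2 ratio of miR-125a-3p was -0.20 (-0.68 to 0.28), or -0.04 relative to the median. With 78 and 75 counts, the interval of miR-125a-3p included the ratio of its 5p strand.

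The let-7 partners went the other way. let-7e-5p, let-7c-5p and let-7a-5p had log2 ratios of -0.30, -0.40 and -0.32 and were called lower in replicate 2 with totals, TMM and DESeq2 size factors. Relative to the median, itself at -0.16, they stood at -0.14, -0.24 and -0.16. Of their 3p strands, let-7e-3p, let-7c-1-3p and the shared sequence of let-7c-2-3p and let-7a-1-3p had ratios of -0.27, -0.33 and -0.48, or -0.11, -0.17 and -0.32 relative to the median, and the last was called lower.

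**Figure D4:**
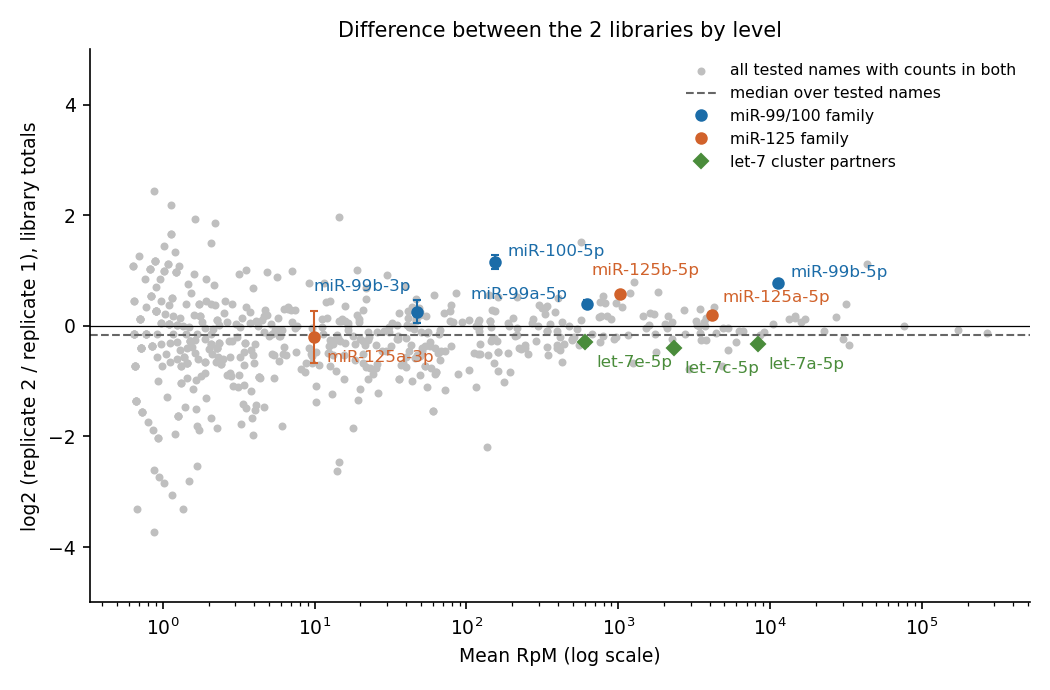
log2 ratio of replicate 2 to replicate 1 with library totals against mean RpM on a log axis, for all tested names with counts in both libraries. Bars are exact 95% intervals and the dashed line is the median of -0.16. The 5p members lie above the line and the let-7 partners slightly below it.

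Partners of a cluster are cut from neighbouring hairpins, so the change of their ratio between the libraries was examined, a quantity that needs no scaling. For the single-locus names of chromosome 17 the ratio of miR-99b-5p to miR-125a-5p rose by 0.57 (0.54 to 0.60) on the log2 scale, that of miR-99b-5p to let-7e-5p by 1.07 (1.01 to 1.13), and that of miR-125a-5p to let-7e-5p by 0.50 (0.43 to 0.56). None of these intervals, from the delta method on log counts, included 0. The partners of this cluster therefore differed in how far they changed between the libraries, although their hairpins start within 0.624 kb.

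Such differences were seen for other neighbours as well. They were computed for the names matched in RefSeq, 1623 of 1915, so not every neighbour in the table is covered. Over 39 pairs of guide strands, taken as the arm with more counts, from single hairpins within 10 kb on a strand and with at least 100 counts each, the median absolute difference was 0.38, with quartiles of 0.11 and 0.55. A difference at least as large as that of miR-99b-5p with miR-125a-5p was found in 10 of the 39, that pair included. For miR-99b-5p with let-7e-5p it was 4 of 39, and for miR-125a-5p with let-7e-5p 13 of 39. The 2 members of the cluster moved in the same direction, as 26 of the 39 pairs did, and let-7e-5p moved in the opposite direction to both. The pairs share names and libraries and are not independent.

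In the other clusters miR-99a-5p and miR-125b-5p changed nearly alike, with a change of their log2 ratio of -0.17 (-0.24 to -0.09). The ratio of miR-125b-5p to miR-100-5p changed by -0.58 (-0.72 to -0.45). The ratios of the let-7 names changed more, by -0.81 (-0.87 to -0.74) for let-7c-5p to miR-99a-5p and by -1.48 (-1.61 to -1.35) for let-7a-5p to miR-100-5p. In all 3 clusters the let-7 name lost ground to both partners in replicate 2. Since let-7c-5p, let-7a-5p and miR-125b-5p sum over loci, these values are not those of a single cluster.

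The same question was put to the strands of a hairpin. The ratio of miR-99b-5p to miR-99b-3p rose by 0.51 (0.30 to 0.72) on the log2 scale between the libraries. For miR-125a the rise was 0.40 (-0.06 to 0.86) and for miR-99a 0.18 (-0.07 to 0.43), with intervals that included 0. Over 89 hairpins with at least 100 counts summed in each arm the median absolute difference was 0.29, and 25 of them, miR-99b included, differed at least as much as miR-99b. The median was passed by miR-99b and miR-125a, and miR-99a lay under it.

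The passengers of the clusters, with far fewer counts, gave wider intervals. On chromosome 17 the ratio of miR-99b-3p to let-7e-3p rose by 0.53 (0.10 to 0.96), that of miR-99b-3p to miR-125a-3p changed by 0.46 (-0.04 to 0.96), and that of let-7e-3p to miR-125a-3p by -0.07 (-0.67 to 0.52). On chromosome 16 the ratio of miR-99a-3p to let-7c-1-3p rose by 0.55 (0.09 to 1.02) and that of miR-125b-2-3p to miR-99a-3p changed by -0.17 (-0.44 to 0.09). The passengers of miR-99b and miR-99a thus gained on the let-7 passenger of their own cluster, in the direction of the 5p strands, and for the other 3 ratios a change was not detectable at this depth. Between the chromosomes, the ratio of miR-99b-3p to miR-99a-3p changed by 0.03 (-0.29 to 0.35).

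**Figure D5:**
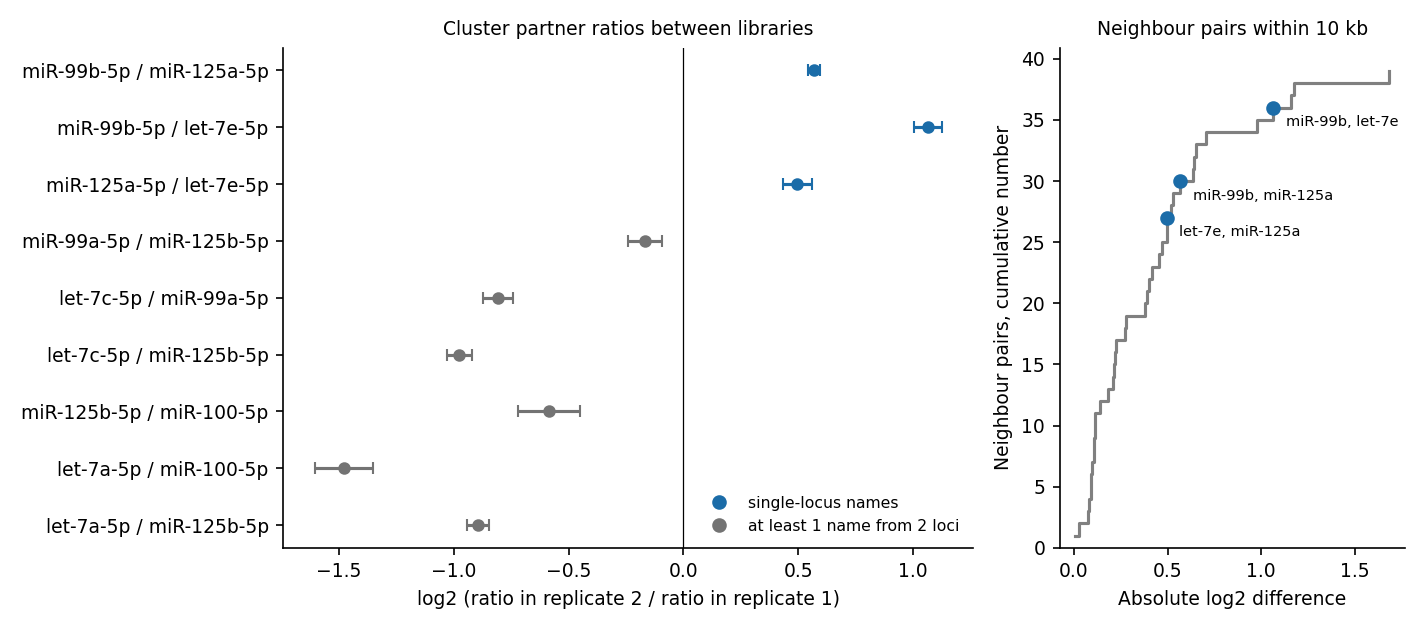
Left, change of the log2 ratio of cluster partners from replicate 1 to replicate 2 with 95% delta-method intervals, in blue for names of a single locus and in grey where at least 1 name comes from 2 loci. Right, cumulative number of the 39 neighbour pairs within 10 kb by absolute log2 difference, with the 3 pairs of the chromosome 17 cluster marked at 0.50, 0.57 and 1.07.

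Markers of macrophages and of other cells were read beside these differences. The 6 macrophage and myeloid names were all present and summed to 356887 RpM and 354459 RpM in replicates 1 and 2, with miR-21a-5p the most abundant. Of them, miR-146a-5p, an NF-kB-induced miRNA, was called higher in replicate 2 with a log2 ratio of 1.11, at 27603 RpM and 59649 RpM, and the other 5 were called lower with totals, as were 30.4% of all names tested and 82 of the 170 with at least 1000 counts. The log2 ratio of miR-21a-5p turned from -0.12 with totals to 0.01 with TMM and 0.02 with DESeq2 size factors. miR-146a-5p thus moved in the same direction as the 5p members, and its part in their difference was not tested.

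The 6 fibroblast and stromal names, a cell type in which miR-99a, miR-100 and miR-125b are abundant, summed to 275 RpM and 177 RpM, led by miR-143-3p. Of them 3 were called lower and 0 higher in replicate 2, where 30.4% of all names tested were called lower, and miR-199a-5p, which was not called, had a log2 ratio of 0.29. Most of the sum was miR-143-3p, at 187 RpM and 117 RpM. Whether cells of this type had a part in the difference of the members was not tested. In bulk samples fewer cells of a type and less RNA per cell cannot be told apart. The 4 endothelial and progenitor names summed to 109 RpM and 86.1 RpM, led by miR-126a-5p, with 2 called lower.

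The 4 erythroid names summed to 542 RpM and 456 RpM, nearly all of it miR-486a-5p, which was called lower (log2 ratio -0.25), while miR-451a had 7 and 8 counts, miR-144-5p 2 and 4, and miR-144-3p 2 and 0. The 5 lymphoid names summed to 12070 RpM and 12319 RpM, nearly all of it miR-181a-5p and miR-181b-5p, which myeloid cells also express. Of this list miR-155-5p, which like miR-146a-5p is induced by NF-kB in macrophages, was called lower in replicate 2, with 725 and 359 counts and a log2 ratio of -1.16. It thus moved opposite to miR-146a-5p and to the 5p members, and a part of NF-kB in the difference of the members was not tested. miR-150-5p, with 202 and 88 counts, was also called lower (log2 ratio -1.34), miR-181a-5p was called higher (0.04) and miR-181b-5p was not called. miR-205-5p, which was in the list but is known as an epithelial miRNA and says nothing of lymphoid cells, had 1 and 0 counts. Neutrophils share miR-223-3p with macrophages, at 6053 RpM and 4485 RpM, and had no marker of their own here.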

How the data were processed

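BMDMs of WT male mice were grown in medium with L-cell conditioned supplement, and small RNA libraries were made after rRNA depletion. Trimmed reads were aligned by the authors to the miRBase hairpins of the mouse (Bowtie), and the deposited values are raw counts per mature name. The mismatches allowed and the treatment of reads with several matches are not given in the sources used here, and could move counts between near-identical strands. let-7a-1-3p and let-7c-2-3p have the same sequence and held the same counts, while miR-199a-3p (280 and 262) and miR-199b-3p (278 and 261), also identical in sequence, did not. The submitters' processing notes name DESeq2. The study gives more replicates than the 2 libraries used, and any other was not analysed here.

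Counts were divided by library totals. Intervals are exact (Clopper-Pearson) at 95%. Fisher's exact test was tested on simulated data that held counting error only, so variation between replicates was not covered. Without groups no quasi-likelihood test was made. In R 4.3.3, edgeR 4.0.16 gave TMM library sizes and DESeq2 1.42.0 gave size factors, which were 1 for both libraries. Python 3.11.15 with scipy 1.17.1 was used elsewhere. Named miRNAs were the members, the other arms of their hairpins, let-7 partners, names of the same seed, cell type markers and rank neighbours. Members and lists were chosen with earlier results of these data known. Alternatives were each library alone, pooled counts, other totals, scalings, count minimums and thinning, miR-99a-5p with miR-100-5p summed, a partner distance of 50 kb, and a seed of bases 2 to 7.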

Additional observations from a re-analysis of the deposited data

How the results depend on the processing

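No paired analysis was possible because both libraries belong to a single condition. Of 50 alternative values for the summary results, 43 moved by less than the spread between the libraries or, for the count of names called, by less than 1.5 times. With 2 libraries, leaving out either or pooling the counts can hardly move a mean by 1 SD, so those settings test little. The share of the members was between 1.37% and 2.09% with single libraries and rose to 2.36% without miR-21a-5p in the total, by construction, since the total shrinks. With miR-99a-5p and miR-100-5p summed, the mean log2 ratio of miR-99b-5p to them was 3.84, that of miR-125b-5p to them 0.41 in place of 2.83, and that of their sum to miR-125b-5p -0.41 in place of -0.72, again because the sum is larger than either name. The median absolute difference of neighbour pairs was 0.385 within 50 kb, against 0.381. This median has no spread between libraries to compare with, and its alternative was not counted among the 43. The median share of the major arm was 95.8% with hairpins of at least 10 counts and 98.1% with at least 1000, from other sets of hairpins. Between 224 and 259 names were called under the 5 alternatives, beside 260. The number tested moved with the count minimum, so the share called was not stable. A minimum of 1 count summed gave 247 of 1013 names called, 10 counts 260 of 588, and 100 counts 224 of 326. The log2 ratios of the members, the let-7 partners and miR-351-5p kept their direction with TMM, with DESeq2 size factors and without miR-21a-5p. Of 33 such values 31 kept their side of the threshold, and without miR-21a-5p the calls of miR-99b-3p (0.21) and miR-351-5p (0.02) were lost. Depth limits miR-100-3p and let-7a-2-3p, which lay under the floor of 3 counts.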
